A study of Homo sapiens with 6 samples.

Results

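RNA levels of 10 genes of major histocompatibility complex (MHC) class I antigen processing were examined in HCT116, an established line of human colon cancer cells titled HCT116 +/+ in the labels. The genes were TAP1, TAP2, TAPBP, PSMB8, PSMB9, PSMB10, ERAP1, ERAP2, B2M and NLRC5, out of 17841 genes tested. The set was drawn up around TAP1, whose level in these arrays was known to be higher after each drug, and the other genes were taken for their part in the same pathway. TAP1's differences from control are therefore given as a description with no test. Earlier results of these data were also known when the other genes were listed, so their tests and counts are not free of that choice. Probe sets were members when the platform annotation gave them a member as their only gene symbol, and 245 probe sets qualified. Of these, 190 had a mean over the 6 arrays above the filter of 4.73, the median of all probe-set means, and were averaged into gene levels. All 10 genes had enough such probe sets to be tested.

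The cells had received Nutlin-3 (2 arrays, labelled Nutlin 3R), 5-fluorouracil (5FU, 2 arrays) or neither drug (2 control arrays), and RNA was collected after 12 h. Nutlin-3 keeps MDM2 from binding p53, which stabilises p53, and 5FU interferes with thymidylate synthesis and is a chemotherapy drug. For the controls the treatment label reads none, but the series' design text names DMSO, and neither source states a dose. All groups are a single cell line, and nothing in the labels says that replicates were separate cultures, so p-values reflect just the array-to-array spread, which may be technical.

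MHC class I molecules show peptides from inside the cell to cytotoxic T cells. Proteasomes cut cytosolic proteins into peptides, the transporter made of TAP1 and TAP2 moves these into the endoplasmic reticulum, aminopeptidases trim them there, and a loading complex that includes tapasin places them on a heavy chain paired with beta-2-microglobulin. Many of these genes are known to be induced together by interferon, and TAP1 is also known as a p53 target. In RefSeq's gene table TAP2, PSMB8, TAP1 and PSMB9 lie next to each other on chromosome 6, with PSMB8-AS1 overlapping PSMB8 and TAP1, and the listed span of ERAP1 on chromosome 5 covers ERAP2. Whether signal is shared between these overlapping genes was not tested.

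TAP1 and PSMB9 are transcribed away from each other, with 487 bases between the starts RefSeq lists for them. The 250 bases before the listed start (RefSeq, GRCh38.p14) are shown for this pair, for ERAP2, and for TAPBP, which holds the same motif as TAP1. The TAP1 window is chr6:32853705-32853954 on the minus strand, and the PSMB9 window is chr6:32853942-32854191 on the plus strand, so they share 13 bases. The TAPBP window is chr6:33314079-33314328 on the minus strand and the ERAP2 window is chr5:96875734-96875983 on the plus strand. Capitals mark the core of the interferon-stimulated response element (a pair of GAAA units with 2 free bases between them), read on either strand, and overlapping matches run together.
TAP1: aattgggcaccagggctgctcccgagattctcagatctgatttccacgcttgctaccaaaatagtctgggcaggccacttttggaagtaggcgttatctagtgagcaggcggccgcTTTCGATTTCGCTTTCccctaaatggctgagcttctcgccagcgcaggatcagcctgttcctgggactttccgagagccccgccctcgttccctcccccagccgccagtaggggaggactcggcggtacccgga
PSMB9: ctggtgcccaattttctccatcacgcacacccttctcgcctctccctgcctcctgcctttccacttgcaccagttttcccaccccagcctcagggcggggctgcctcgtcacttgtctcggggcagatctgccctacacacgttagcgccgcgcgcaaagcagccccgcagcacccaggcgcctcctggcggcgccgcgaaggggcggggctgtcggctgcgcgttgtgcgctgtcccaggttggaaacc
TAPBP: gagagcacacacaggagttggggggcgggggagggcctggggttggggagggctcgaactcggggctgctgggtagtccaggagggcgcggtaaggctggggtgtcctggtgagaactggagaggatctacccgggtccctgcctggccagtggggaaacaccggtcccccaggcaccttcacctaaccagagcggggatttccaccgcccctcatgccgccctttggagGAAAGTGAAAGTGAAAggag
ERAP2: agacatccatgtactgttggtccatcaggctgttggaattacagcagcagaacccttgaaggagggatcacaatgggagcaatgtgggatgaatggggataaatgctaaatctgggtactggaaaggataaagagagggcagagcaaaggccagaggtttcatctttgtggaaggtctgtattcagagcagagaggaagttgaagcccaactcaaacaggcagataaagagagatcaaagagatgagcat
The TAP1 window held 2 overlapping matches, and TAPBP's window also held 2. The windows of PSMB9 and ERAP2 shown here held none. Windows were listed for 9 of the 10 genes, 13 in all because some genes have several starts. The response element core was in 6 of these 13 windows, against 3.02% of all 35116 windows of this length. The 6 belonged to 6 genes (TAP1, TAP2, TAPBP, PSMB10, B2M and, in its other window, ERAP2). The interferon-gamma-activated site TTCNNNGAA was in a window of PSMB8 and in the other window of TAP1 (6.57% of all windows). The p53 half-site, the 10-base unit of the p53 response element, was in PSMB10's window alone (5.57% of all windows), and the cyclic AMP response element TGACGTCA was in none (1.65%). The kappaB pattern (GGG, 5 free bases and CC, on either strand) overlapped itself in places. It was in 6 of the 13 windows, belonging to 5 genes, and in 54.4% of all windows. A match is a description of these letters and not a site of binding.

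Array medians lay between 4.73 and 4.78, and RMA values carry no call of presence; precision is limited by how few arrays there are. An exact permutation test (two-sided) of 2 arrays and 2 arrays can reach no less than 0.333, so the tests depend on limma's pooling of variance over genes. As a check of the drugs, the p53 target MDM2 was at 10.26 and 10.67 with Nutlin-3 and 10.04 and 10.31 with 5FU, against 8.64 and 8.57 in control. Of 218 probe sets of 12 colonic epithelial markers, 78.9% lay above the filter, against 70.0% of 277 for fibroblast, 56.3% of 112 for endothelial, 50.5% of 99 for antigen-presenting cell and 32.1% of 140 for blood cell markers, so this share did not set epithelial markers far from fibroblast ones. The log2 summed level of the epithelial list was 12.79 to 12.81 with Nutlin-3, 12.82 to 12.83 with 5FU and 12.71 to 12.73 in control. That of 7 blood cell markers was 9.26 to 9.48, 9.18 to 9.26 and 9.22 to 9.30 in the same order, and that of 6 markers of professional antigen-presenting cells 8.83 to 8.87, 8.75 to 8.76 and 8.56 to 8.77. For 6 fibroblast markers the sum was 9.18 to 9.28, 9.15 to 9.29 and 9.07 to 9.30. For 3 endothelial markers it was 7.995 to 8.21, 8.02 to 8.10 and 7.94 to 8.21. Longer lists give larger sums, and control means of single epithelial markers ran from 5.75 (VIL1) to 11.15 (KRT8). The part of these marker lists in the results was not tested.

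Among the transporter and loading genes, TAP1 was well above control after each drug and TAP2 and TAPBP did not pass the test after either. TAP1, which encodes the first subunit, had log2 levels of 9.03 and 9.10 with Nutlin-3 and 9.01 and 9.11 with 5FU, against 8.01 and 7.66 in control. Every drug array lay above both control arrays, with a gap of 1.01 for Nutlin-3 and 0.998 for 5FU, and the control arrays differed from each other more than the drug arrays did. The differences were 1.22 on the log2 scale for each drug (SE 0.158 each), or 2.34-fold for Nutlin-3 and 2.33-fold for 5FU. In bulk RNA, more RNA per cell and more cells that hold it cannot be told apart.

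TAP2, the partner subunit, was at 7.71 and 7.86 with Nutlin-3 and 8.001 and 8.105 with 5FU, against 8.04 and 7.69 in control. Both drug groups overlapped control. The log2 difference was -0.08 for Nutlin-3 (95% interval -0.46 to 0.31, limma with Benjamini-Hochberg adjustment over all genes, adjusted p = 0.951) and 0.19 for 5FU (-0.19 to 0.57, adjusted p = 0.813). TAPBP, which encodes tapasin, was at 7.78 and 7.85 with Nutlin-3 and 7.96 and 7.89 with 5FU, against 7.82 and 7.66 in control. Its differences were 0.07 (-0.24 to 0.39, adjusted p = 0.941) and 0.18 (-0.13 to 0.50, adjusted p = 0.76) for Nutlin-3 and 5FU in that order.

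**Figure D1:**
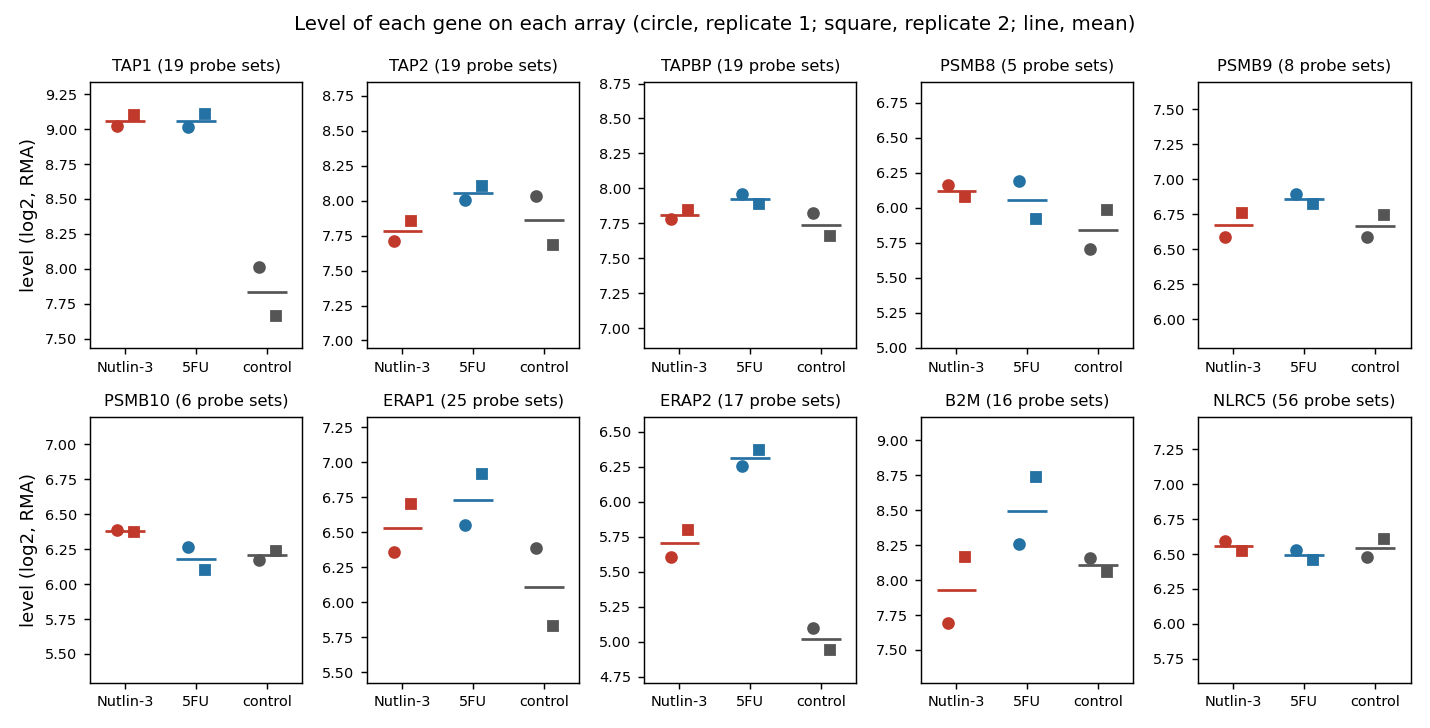
Log2 RMA level of the 10 genes on each of the 6 arrays, with Nutlin-3, 5FU and control from left to right, circles for replicate 1, squares for replicate 2 and a line at the mean of 2 arrays; every panel spans the same number of log2 units. TAP1 and ERAP2 are the genes whose drug arrays stand well above control in both drug groups, with TAP1 at 9.01 to 9.11 after either drug.

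Both endoplasmic reticulum aminopeptidases had mean levels above control, and ERAP2 passed the test after 5FU. ERAP2 was at 5.61 and 5.80 with Nutlin-3 and 6.26 and 6.37 with 5FU, against 5.10 and 4.94 in control. The 3 groups did not overlap, with 5FU highest and control lowest. ERAP2 rose 2.46-fold after 5FU (log2 difference 1.30, SE 0.144, 95% interval 0.96 to 1.64, limma adjusted p = 0.0265). For Nutlin-3 the difference was 0.69 (0.35 to 1.03), which did not pass (limma adjusted p = 0.097). Probe sets were also chosen on the control arrays alone, so that a drug response could not decide which were kept. The Nutlin-3 difference was then 0.40 (limma adjusted p = 0.447), and with all probe sets it was 0.42 (limma adjusted p = 0.349). The choice on control arrays can in turn favour probe sets whose control values happen to be high, which would lower the difference. Without any 1 array the 5FU difference stayed between 1.22 and 1.38. Such fits leave 1 array in a group, so their calls are not read. With all arrays, the 5FU call of ERAP2 was kept with all probe sets (limma adjusted p = 0.0434). It was also kept with centred arrays (limma adjusted p = 0.00708) and with trend and robust variances (limma adjusted p = 0.0317). The call was lost when probe sets were chosen on the control arrays alone (difference 0.95, limma adjusted p = 0.0804). It was also lost when the median of probe sets replaced the mean (1.23, limma adjusted p = 0.0711), and with a block for replicate number (limma adjusted p = 0.147).

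ERAP1, which trims peptides to the length that class I molecules bind, was at 6.36 and 6.70 with Nutlin-3 and 6.55 and 6.92 with 5FU, against 6.39 and 5.83 in control. Both 5FU arrays lay above control, whereas the Nutlin-3 group overlapped it through control replicate 1. The log2 difference was 0.42 for Nutlin-3 (-0.14 to 0.97, limma adjusted p = 0.672) and 0.62 for 5FU (0.07 to 1.18, limma adjusted p = 0.402). Without control replicate 1 these values were 0.70 and 0.90, and without control replicate 2 they were 0.14 and 0.34.

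The immunoproteasome subunits, which replace the constitutive catalytic subunits and change which peptides are cut, did not pass the test after either drug. PSMB9, the gene that starts beside TAP1, was at 6.59 and 6.76 with Nutlin-3 and 6.90 and 6.82 with 5FU, against 6.59 and 6.74 in control. The Nutlin-3 and control groups were nearly superimposed, and the 5FU arrays lay above control with a gap of 0.077. Its log2 difference was 0.01 for Nutlin-3 (-0.32 to 0.33, limma adjusted p = 0.996) and 0.19 for 5FU (-0.14 to 0.52, limma adjusted p = 0.76). PSMB8 was at 6.17 and 6.08 with Nutlin-3 and 6.19 and 5.92 with 5FU, against 5.71 and 5.98 in control. Its differences were 0.28 (-0.10 to 0.66, limma adjusted p = 0.693) and 0.21 (-0.17 to 0.59, limma adjusted p = 0.781), on 5 of 10 probe sets above the filter. With all 10 probe sets they were 0.03 and 0.005, and without 1 array they lay between 0.14 and 0.42 for Nutlin-3 and between 0.07 and 0.35 for 5FU. PSMB10 was at 6.39 and 6.38 with Nutlin-3 and 6.26 and 6.10 with 5FU, against 6.17 and 6.24 in control. Its differences were 0.18 (-0.14 to 0.49, limma adjusted p = 0.797) and -0.02 (-0.33 to 0.29, limma adjusted p = 0.987).

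B2M, the light chain of every class I molecule, was at 7.69 and 8.17 with Nutlin-3 and 8.26 and 8.74 with 5FU, against 8.16 and 8.06 in control. The replicates of each drug were about as far apart as the drug means, and replicate 2 was the higher in both drug groups. The log2 difference from control was -0.18 for Nutlin-3 (-0.70 to 0.34, limma adjusted p = 0.896) and 0.39 for 5FU (-0.13 to 0.91, limma adjusted p = 0.638). The 5FU difference was 0.63 without 5FU replicate 1 and 0.15 without 5FU replicate 2. NLRC5, a coactivator of class I gene transcription, was at 6.60 and 6.52 with Nutlin-3 and 6.53 and 6.45 with 5FU, against 6.48 and 6.60 in control, so all 3 groups overlapped. Its differences were 0.02 (-0.29 to 0.32, limma adjusted p = 0.991) and -0.05 (-0.36 to 0.26, limma adjusted p = 0.966).

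**Figure D2:**
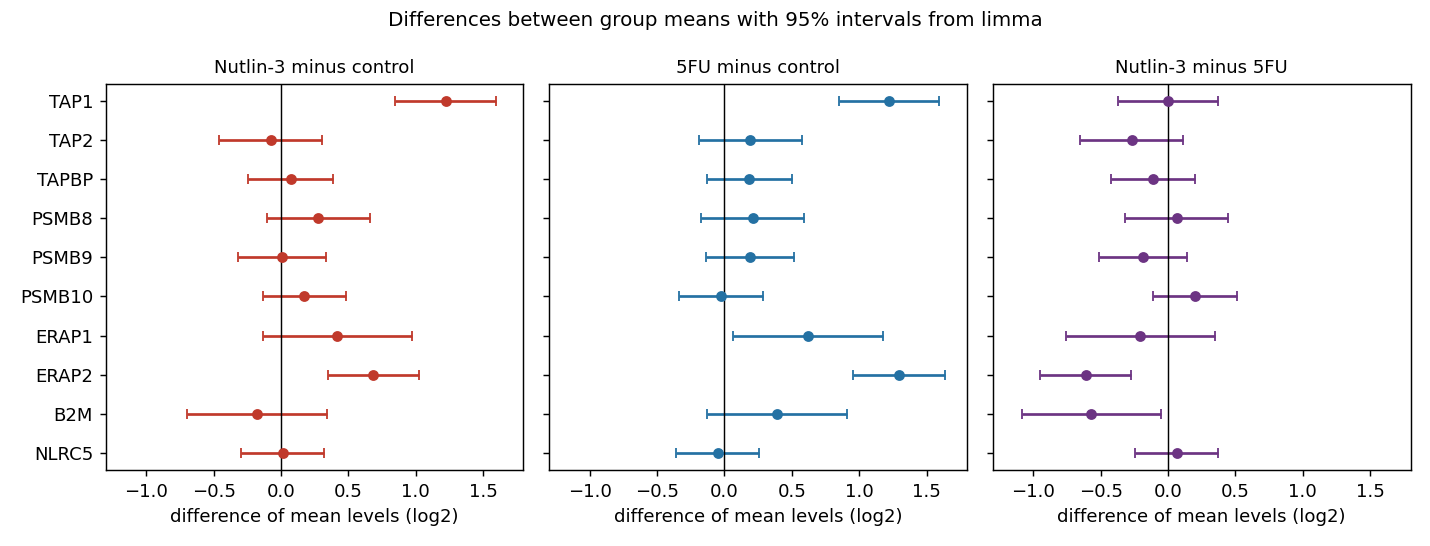
Difference of mean log2 levels of the 10 genes for Nutlin-3 minus control, 5FU minus control and Nutlin-3 minus 5FU, with bars for limma's 95% interval. TAP1 is at 1.22 in both drug panels and 0.00 between the drugs, while ERAP2 is at 0.69, 1.30 and -0.61. TAP1 was chosen for its differences from control, so its bars in those panels are not a test.

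Of the 9 genes other than TAP1, limma called 0 after Nutlin-3, where 1.22% of all genes were called (0.359% higher and 0.858% lower). An unadjusted p below 0.05 was reached by 1 of the 9 (ERAP2), against 10.2% of all genes. After 5FU limma called 1 of the 9, ERAP2, against 0.448% of all genes called (0.331% higher and 0.118% lower). An unadjusted p below 0.05 was reached by 2 of the 9 (ERAP1 and ERAP2), against 10.7% of all genes. Both drug arrays lay above both control arrays for 3 of the 9 genes with Nutlin-3 (PSMB8, PSMB10 and ERAP2), against 16.2% of all genes, and for 5 of the 9 with 5FU (TAPBP, PSMB9, ERAP1, ERAP2 and B2M), against 20% of all genes. The median log2 difference of the 9 genes was 0.07 after Nutlin-3 and 0.19 after 5FU, against 0.001 over all genes in each comparison. Both drug groups were compared with the same 2 control arrays, so their differences are not independent of each other.

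Set directly against each other, the drug groups both had a mean TAP1 level of 9.06. The log2 difference of Nutlin-3 from 5FU was 0.001 (95% interval -0.37 to 0.38, limma adjusted p = 0.999). ERAP2 was lower with Nutlin-3 than with 5FU on both arrays, with a log2 difference of -0.61 (-0.95 to -0.27) that did not pass (limma adjusted p = 0.143). B2M was also lower with Nutlin-3 on both arrays, by a log2 difference of -0.57 (-1.09 to -0.05, limma adjusted p = 0.336). TAPBP, TAP2 and PSMB9 likewise had both Nutlin-3 arrays below both 5FU arrays, which makes 5 of the 10 genes against 25.2% of all genes, and PSMB10 alone had them above (20.8% of all genes). The 8 genes other than ERAP2 and B2M had differences between -0.27 and 0.20. Of the 10 genes, limma called 0 in this comparison, where 0.633% of all genes were called (0.0617% higher and 0.572% lower with Nutlin-3), and 2 had an unadjusted p below 0.05 (ERAP2 and B2M), against 13.3% of all genes.

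The array carries several probe sets per gene, so that a difference can be followed along it. TAP1 had 20 probe sets, 19 above the filter. Of these 19, 16 had both Nutlin-3 arrays above both control arrays and 18 had both 5FU arrays above them, against 16.8% and 19.3% of all named probe sets above the filter, and nothing is read from these counts because TAP1 was chosen for these contrasts. In each drug 15 of the 19 differed by at least 1 on the log2 scale, and the median probe-set difference was 1.38 for Nutlin-3 and 1.32 for 5FU. The 2 probe sets with the highest identifiers stood apart, at -0.09 and -0.19 for Nutlin-3 and 0.19 and 0.25 for 5FU. The files do not place them within the transcript.

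ERAP2 had 32 probe sets, of which 17 were above the filter, and 6 of those 17 had a control mean at or below it. Both Nutlin-3 arrays were above both control arrays at 9 of the 17, and both 5FU arrays at 13, against 16.8% and 19.3% of all named probe sets. Over the 11 probe sets whose control mean was above the filter, these counts were 3 for Nutlin-3 and 7 for 5FU. Choosing by control level can lower such counts, here and for ERAP1 and B2M below. Probe-set differences from control ran between -0.53 and 1.85 for Nutlin-3 and between -0.15 and 2.81 for 5FU. Nutlin-3 was below 5FU on both arrays at 15 of the 17, and at 10 of those 11, against 22.5% of all named probe sets. The mean of ERAP2 in control, 5.02, lay close to the filter.

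In ERAP1, 22 of 25 probe sets had a Nutlin-3 mean above control and 24 had a 5FU mean above it, where the share of all named probe sets was 48.6% and 49.9%. Both arrays of the drug lay above both control arrays at 10 for Nutlin-3 and at 15 for 5FU, against 16.8% and 19.3% of all named probe sets. Over the 23 ERAP1 probe sets whose control mean was above the filter, 20 had a Nutlin-3 mean above control and 22 a 5FU mean. Both drug arrays lay above both control arrays at 9 and 13 of those 23. In B2M 4 of 16 probe sets had a Nutlin-3 mean above control and all 16 had a 5FU mean above it. Both Nutlin-3 arrays lay above both control arrays at 1 and both 5FU arrays at 6. Over the 14 B2M probe sets whose control mean was above the filter, the drug mean was above control at 2 for Nutlin-3 and 14 for 5FU. Both drug arrays lay above both control arrays at 1 and 5 of those 14. PSMB9 had 4 of 8 probe sets above control with each drug, and NLRC5 had 32 of 56 with Nutlin-3 and 24 with 5FU. Fitted separately, limma called 0 of the 190 member probe sets in any comparison, where it called 0, 0 and 10 of 705699 probe sets for Nutlin-3 against control, 5FU against control and Nutlin-3 against 5FU (0%, 0% and 0.00142%), with 43352, 44222 and 52116 at an unadjusted p below 0.05. Probe sets of a gene share its RNA and are not replicates.

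**Figure D3:**
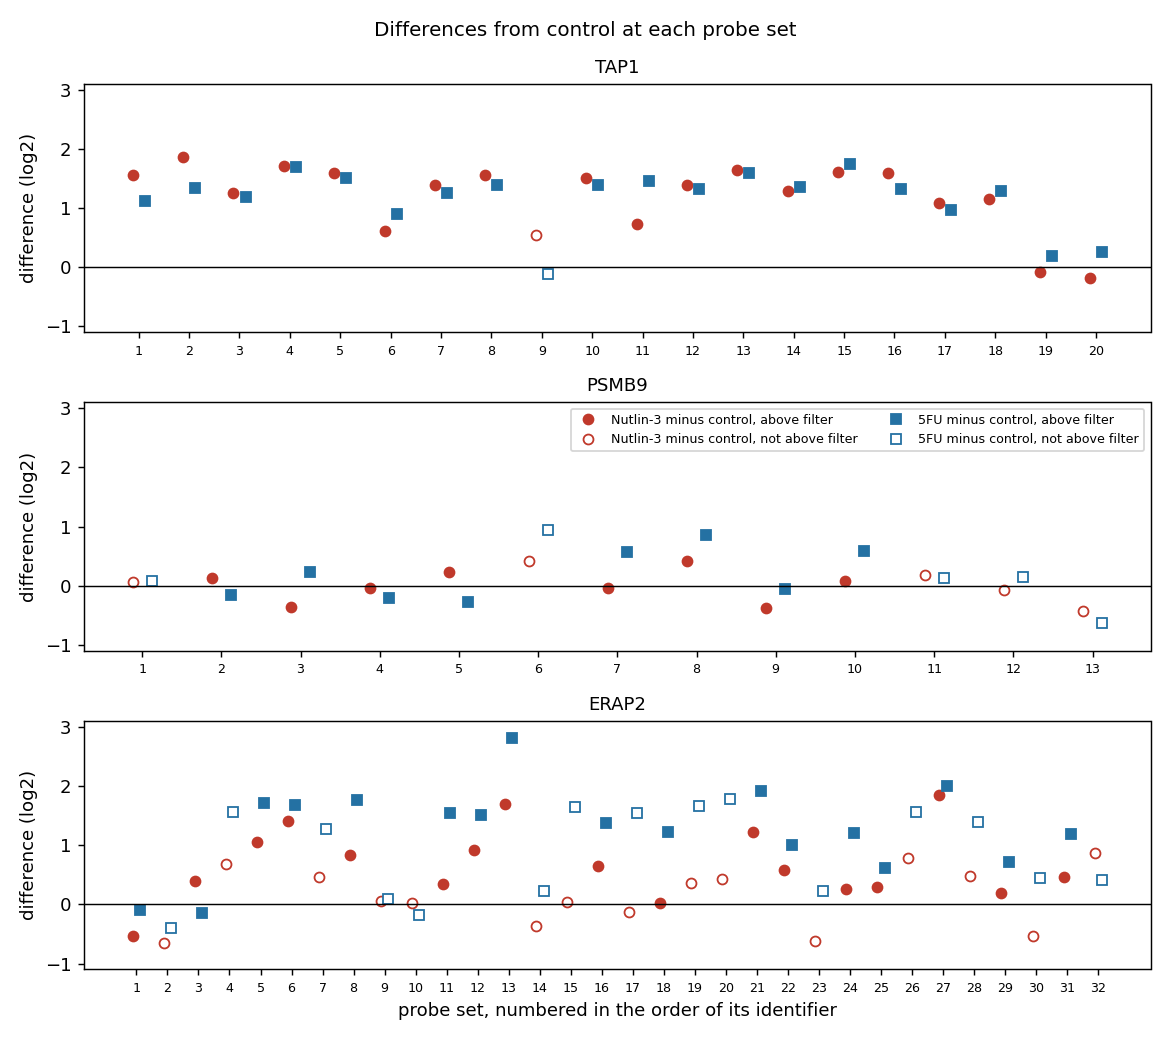
Log2 difference from control at each probe set of TAP1, PSMB9 and ERAP2, with circles for Nutlin-3 and squares for 5FU, filled where the probe set was above the filter and numbered in the order of its identifier. TAP1 lies mostly above 1 in both drugs, with its last 2 probe sets between -0.19 and 0.25 and some others also below 1. PSMB9 scatters about 0, and the 5FU squares of ERAP2 mostly lie above its Nutlin-3 circles.

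Beyond these 10 genes, 42 further genes of the pathway and its regulators were listed, and 36 were tested; the others were not analysed here. No listed gene passed limma's test after either drug (0 of 36 each), where 1.22% of all genes passed for Nutlin-3 and 0.448% for 5FU. An unadjusted p under 0.05 was reached by 2 genes for Nutlin-3 and 8 for 5FU; the shares over all genes were 10.2% and 10.7%. Their median log2 difference was -0.002 for Nutlin-3 and 0.10 for 5FU. In the Nutlin-3 comparison the largest absolute differences were those of RFX5, a DNA-binding factor at class I and class II promoters (0.86, limma adjusted p = 0.108), STAT2, a transducer of interferon signals (0.50, limma adjusted p = 0.374), ABCB10, a mitochondrial transporter (-0.46, limma adjusted p = 0.556), and MICB, a stress-induced ligand of NKG2D (-0.37, limma adjusted p = 0.664). For 5FU they were HSPA5, an endoplasmic reticulum chaperone (-0.67, limma adjusted p = 0.181), ABCB10 (-0.61, limma adjusted p = 0.378), IRF1, a transcription factor of the interferon response (0.57, limma adjusted p = 0.273), and MICB (0.55, limma adjusted p = 0.392).

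RFX5 was at 8.003 and 8.354 with Nutlin-3 and 7.80 and 7.85 with 5FU, against 7.52 and 7.13 in control, so every drug array lay above control without passing the test. IRF1 was at 6.32 and 6.45 with Nutlin-3 and 6.92 and 7.12 with 5FU, against 6.62 and 6.29 in control, with only the 5FU arrays above control. The 4 measured heavy chains and relatives, HLA-C, HLA-E, HLA-F and MICB, had differences between -0.37 and 0.26 for Nutlin-3 and between -0.05 and 0.55 for 5FU. Because HLA genes resemble each other, their probe sets are uncertain. The 3 constitutive catalytic subunits PSMB5, PSMB6 and PSMB7 differed by -0.22 to -0.06 for Nutlin-3 and by 0.06 to 0.23 for 5FU. Of 13 interferon receptors, kinases and ligands, 9 were tested and limma called 0 after either drug, where 1.22% and 0.448% of all genes were called. In each comparison 1 of the 9 had an unadjusted p below 0.05 (IFNGR2 at -0.46 for Nutlin-3 and IFNGR1 at 0.94 for 5FU). That is near the share over all genes, 10.2% and 10.7%.

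**Figure D4:**
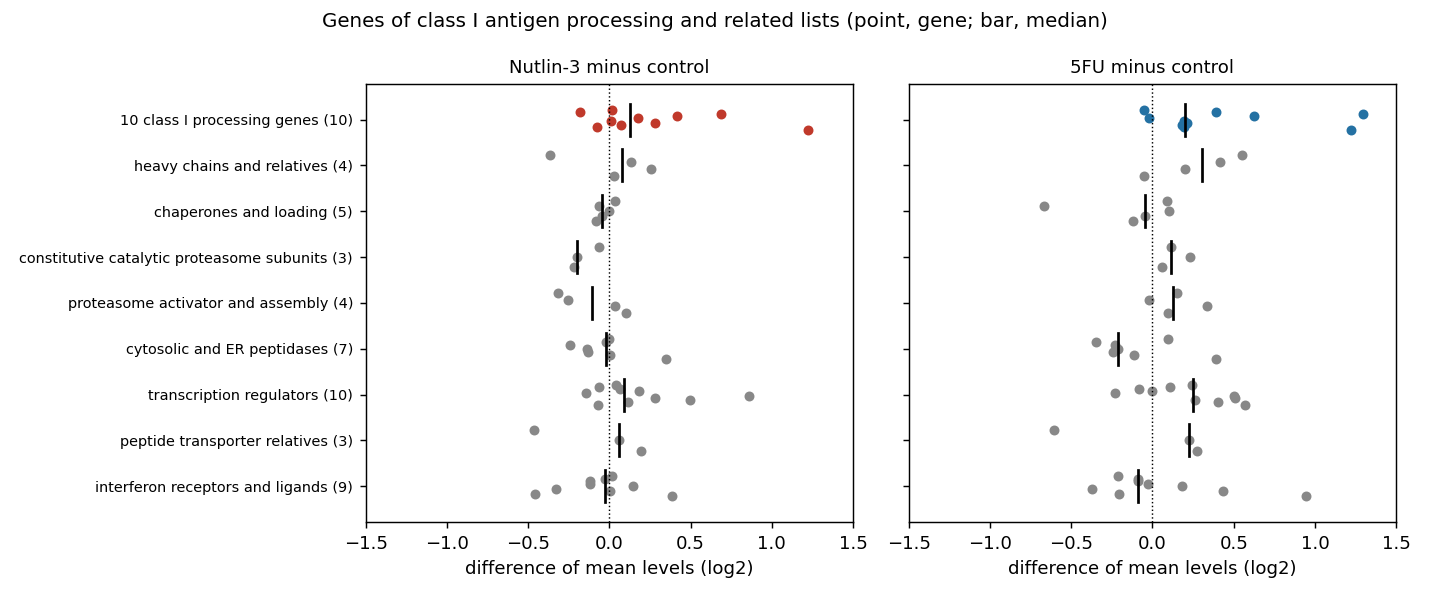
Log2 differences from control of the 10 genes (coloured) and of 8 lists of related genes (grey), for Nutlin-3 on the left and 5FU on the right; each point is a gene, bars are list medians (TAP1 included in the first), and numbers in brackets count tested genes. In the coloured row 1 gene lies above 1 for Nutlin-3 and 2 do for 5FU, and no grey point lies beyond 1 on either side.

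Of 471 genes with 3 or more probe sets above the filter and group means spanning at least 1 log2 unit, those whose levels followed TAP1 most closely over the 6 arrays (the top 5) were GALNT5 (Pearson r = 0.997), ZMAT3 (0.995), SLC44A5 (0.994), BTG2 (0.994) and CYFIP2 (0.994). Their log2 differences from control lay between 1.30 and 1.63 for Nutlin-3 and between 1.25 and 1.77 for 5FU. Within the pathway the r to TAP1 over the same arrays was 0.88 for ERAP2, 0.82 for ERAP1, 0.72 for TAPBP and 0.58 for PSMB8, and between -0.30 and 0.35 for the other 5. These arrays fall into 3 groups of 2, so each r mostly restates the differences between groups.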

How the data were processed

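Affymetrix Human Exon 1.0 ST arrays were used, and the authors deposited a log2 value for each probe set. Per the submitters' processing notes these come from RMA (background correction, normalization across arrays and a summary of each probe set's probes); the version and settings used are not known here. Of 1411399 probe sets, 357604 carried 1 gene symbol in the platform annotation; older symbols were updated through RefSeq's gene table (GRCh38.p14), and the member symbols were current.

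Probe sets averaging above 4.73 across the 6 arrays were averaged to a gene level, where a gene had at least 2. The 3 groups were fitted in 1 model in limma 3.58.1 (lmFit and eBayes, R 4.3.3, 3 residual degrees of freedom) over 17841 genes; calls required an adjusted p (Benjamini-Hochberg) under 0.05. The fit was tested on simulated data. Members and lists were chosen with earlier results of these data known; TAP1 was left out of counts and medians for the drug-control contrasts. Named were all 10 members, any called genes and the 4 largest differences per drug in the wider pathway list, and the 5 genes most correlated with TAP1, with MDM2 as a check of the drugs. IFNGR1, IFNGR2, the ranges of the heavy chains and PSMB5 to PSMB7, and the array levels of RFX5 and IRF1 were chosen after their values were seen.

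Replicate numbers were not taken to pair arrays. Alternatives varied the probe-set filter, the summary, array centring, the variance model and the replicate block, and left out each array in turn.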

Additional observations from a re-analysis of the deposited data

How the results depend on the processing

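Of the 9 genes other than TAP1, limma called 0 for Nutlin-3 against control, with the replicate block too, and 2 when the pairing was crossed. For 5FU against control the 1 call (ERAP2) stayed with all probe sets, with centred arrays and with trend and robust variances. It became 0 on upper-quartile probe sets (ERAP2 and PSMB8 had no value) and on probe sets chosen on control arrays. The count was also 0 with the median of probe sets and with the replicate block (ERAP2 limma adjusted p = 0.147), and 2 with crossed pairing. Calls without 1 array are not read, because such fits leave 1 array in a group. The crossed pairing and the probe sets chosen on control arrays were added after seeing the data; crossing called 10.6% and 11.9% of all genes for Nutlin-3 and 5FU, and the block 0.0112% and 0.00561%. Deviations of same-numbered arrays correlated at -0.565 (Nutlin-3 and control), -0.525 (5FU and control) and 0.634 (Nutlin-3 and 5FU). Same-numbered arrays thus varied alike between the drugs and in opposite ways between drug and control. The main fit leaves this shared variation in its spread, and its source was not tested. Nutlin-3 against 5FU gave 0 calls under the alternatives that kept all arrays, the replicate block included. On upper-quartile probe sets 8 of the 10 genes had a value, with ERAP2 and PSMB8 missing. The members were not counted under the crossed pairing for Nutlin-3 against 5FU.

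The median log2 difference of the 9 genes was 0.028 with all probe sets for Nutlin-3 (0.073 as reported) and 0.376 with the median of probe sets for 5FU (0.192 as reported); that of the 10 genes for Nutlin-3 against 5FU (-0.148) was -0.082 with the median of probe sets. Without 1 array these medians lay between 0.052 and 0.14, 0.154 and 0.268, and -0.208 and -0.054 in the same order. Signs turned for differences that were not called. With the median of probe sets these were TAP2 (0.092) and TAPBP (-0.102) for Nutlin-3, TAPBP (-0.062) and NLRC5 (0.004) for 5FU, and TAP1 (-0.019) for Nutlin-3 against 5FU. NLRC5 turned for Nutlin-3 with all probe sets (-0.002) and with probe sets chosen on control arrays (-0.011), as did PSMB8 on the control-chosen probe sets (-0.038) for Nutlin-3 against 5FU. Without 1 array, Nutlin-3 against control ran between -0.415 and 0.057 for B2M, -0.045 and 0.076 for NLRC5, -0.076 and 0.09 for PSMB9, -0.25 and 0.099 for TAP2, and -0.009 and 0.155 for TAPBP. For 5FU against control it ran between -0.111 and 0.01 for NLRC5 and -0.104 and 0.056 for PSMB10, and for Nutlin-3 against 5FU between -0.067 and 0.2 for PSMB8 and -0.047 and 0.049 for TAP1. TAP1 stayed between 1.045 and 1.40 above control for each drug. The causes were not tested.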
